A study of Mus musculus with 72 samples.

Results

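The Wnt pathway genes followed here are 48 mouse genes: 19 Wnt ligands, the R-spondin Rspo3, 10 Frizzled receptors, the co-receptors Lrp5 and Lrp6, the secreted antagonists Sfrp1, Sfrp2, Sfrp4, Sfrp5 and Frzb, Dkk1 to Dkk4, the feedback genes Axin2, Nkd1, Notum and Sp5, and the nuclear factors Lef1, Tcf7 and Tcf7l1. They were taken by symbol from the 45321 genes of the count tables, each gene being read from its Ensembl transcript with the highest total count over all libraries. Of the 48 genes, 46 passed the filter on low counts and were tested. Fzd6 was listed at 0 counts in all 18 samples, and Dkk4 never exceeded 2 counts in a sample.

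Expression was measured by RNA sequencing in mouse embryonic stem cells, a pluripotent cell type grown from the early embryo. The controls were the line HM1 (Nup133+/+, 40 chromosomes, XY), sampled as biological replicates 1 and 2, and the blastocyst-derived line 1A4 (Nup133+/+, Sox1gfp/+, 40 chromosomes, XY). The cells lacking Nup133, a scaffold protein of the nuclear pore, were lines 14 and 19, which are CRISPR/Cas9-edited HM1 derivatives (Nup133-/-, XY, 40 chromosomes in line 14 and likely so in line 19), and the blastocyst-derived line 319 (Nup133merm/merm, Sox1gfp/+, 42 chromosomes, XX with gains of chromosomes 8 and 12). Day 0 cells came from feeder cells in serum with leukemia inhibitory factor, and feeders had been depleted by plating. Day 2 cells had been cultured in N2B27 medium, and day 3 cells had also received 1 µM all-trans retinoic acid for the last 24 h. With 2 genotypes and 3 days there were 6 groups, of 3 samples each. Every knockout sample of a day comes from a different single line, HM1 supplies 2 of the 3 controls, and the blastocyst-derived pair differs in karyotype as well as genotype. Sfrp1, Nkd1 and Dkk4 lie on chromosome 8, of which line 319 carries an extra copy, and no member lies on chromosome 12.

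Wnt proteins are secreted, lipid-modified signals that bind a Frizzled receptor together with Lrp5 or Lrp6. In the canonical branch this stops the destruction of beta-catenin, which then enters the nucleus and works with TCF/LEF factors at target genes. Several of those targets, among them Axin2, Nkd1, Notum and Sp5, dampen the same signal. R-spondins raise the number of receptors at the cell surface, sFRP proteins and Frzb bind Wnt ligands outside the cell, and Dkk1 blocks the LRP co-receptors. In the early embryo Wnt3 is required for the primitive streak, and in stem cell cultures Tcf7l1 represses genes of the naive state.

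Promoter sequences help to place the members that differed between genotypes beside the letters that TCF/LEF factors recognise. RefSeq windows on GRCm38.p6, each 300 bases long from 250 bases before to 50 bases after a start site, existed for 32 of the 48 genes, 39 windows in all. The motifs CTTTGAT and CTTTGAA, searched on both strands, stood in 4 of these windows, in Sp5, Wnt5b, Wnt11 and Dkk1, and in 8.65% of all 32851 windows searched. The motif AGGTCA, one repeat of the site of the retinoic acid receptor, stood in windows of Frzb, Tcf7 and Wnt16 and in 16.3% of all windows. The motifs do not overlap one another in the windows of members. The following stretches carry the match in capitals, 5′ to 3′ on the gene's strand: Wnt5b from chr6:119449440-119449469 on the minus strand, Dkk1 from chr19:30549596-30549625 on the minus strand, and Frzb from chr2:80447377-80447406 on the minus strand, where AGGTCA reads on the opposite strand and so appears as TGACCT.
Wnt5b: gagtaagtctctCTTTGATctgctccctgt
Dkk1: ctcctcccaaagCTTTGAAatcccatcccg
Frzb: gagccaaggcgcTGACCTcctctgagctcc
The first base of the match lies at position -71 from the RefSeq start of the shown window in Wnt5b, at -117 in Dkk1 and at 3 in Frzb. That Wnt5b window belongs to the most downstream of its starts. The windows of its upstream starts, chr6:119467162-119467461 and chr6:119544298-119544597, hold no match. Sp5 and Wnt3 are shown for the stretch before the gene's first start site, Sp5 because it holds a match at position -104 and Wnt3 because its window holds none. They span chr2:70474673-70474922 for Sp5 and chr11:103773925-103774149 for Wnt3, both on the plus strand.
Sp5: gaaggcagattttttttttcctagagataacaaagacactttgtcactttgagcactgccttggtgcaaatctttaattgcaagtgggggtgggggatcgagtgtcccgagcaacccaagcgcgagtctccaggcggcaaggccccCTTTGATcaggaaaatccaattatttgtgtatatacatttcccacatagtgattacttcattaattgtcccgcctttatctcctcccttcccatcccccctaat
Wnt3: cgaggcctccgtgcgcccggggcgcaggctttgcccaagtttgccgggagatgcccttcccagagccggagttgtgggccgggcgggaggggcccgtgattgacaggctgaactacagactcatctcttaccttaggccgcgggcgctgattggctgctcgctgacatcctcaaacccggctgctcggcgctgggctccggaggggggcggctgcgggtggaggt
No window of Axin2 held a match either. A match of these letters is a description of the sequence, and the absence of one says only that these letters are not in the window.

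The shallowest sample, line 19 at day 2, held 16.5 M gene counts and the deepest, line 14 at day 3, held 54.4 M. In CPM, a gene's counts scaled to a common library size, Nup133 read 180 to 323 in the 9 control samples and 14.3 to 37.1 in the 9 knockout samples, which do not overlap. The 8 embryonic stem cell markers summed to between 4960 and 6560 CPM in the day 0 samples and to between 310 and 931 CPM at day 3. The library of line 19 at day 2 stood apart on the second principal component (at -87.4, with its day 2 companions from -43.8 to -26.4), and values of day 2 are given without it where that ended or made a call or changed the direction. In these bulk samples fewer cells of a type and less RNA per cell cannot be told apart.

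Per length, Tcf7, Tcf7l1 and Fzd7 were the most abundant members at day 0. In controls Tcf7, Tcf7l1 and Fzd7 stood at 47.6 ± 13.0, 37.6 ± 8.82 and 32.5 ± 3.08 CPM per kb of transcript (SD, n = 3), levels whose spreads touch, followed by the Wnt deacylase Notum at 19.0 ± 1.73 and by Fzd5 at 18.4 ± 1.62. Ligands were much scarcer: 9 of the 19 Wnt genes reached a mean of 1 CPM in day 0 controls, and Wnt5a alone reached a mean of 10 CPM. In the knockout at day 0, 5 of the 19 Wnt genes reached 1 CPM and none reached 10 CPM. By day 3 the controls had Tcf7 (44.7 ± 4.40), Fzd2 (39.8 ± 2.06) and Sfrp5 (28.7 ± 6.33 CPM per kb) as the leading members. The knockout at day 3 was led by Sfrp5 at 67.6 ± 42.8 CPM per kb, a mean with a wide spread between lines.

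At day 0, 7 of the 46 tested members were lower in the knockout and none was higher, where 0.854% of all 18273 genes were called in either direction and 0.788% as lower (edgeR quasi-likelihood test, Benjamini-Hochberg adjusted p below 0.05 over all genes tested). They were the ligands Wnt3, Wnt4, Wnt5b and Rspo3, the antagonist Frzb and the feedback genes Axin2 and Nkd1. At day 2, 3 members were called, all lower: Fzd5, Frzb and Dkk1, against 1.6% of all genes in either direction and 0.963% lower. At day 3, 4 members were called, Frzb higher and Fzd5, Sfrp4 and Tcf7 lower, against 5.19% of all genes, of which 2.75% were higher and 2.44% lower. In all, 11 members were called on some day, and Frzb was the one called on all 3. Over the tested members with counts on a day (45, 46 and 46) the median log2 fold change was -0.59, -0.36 and 0.22 on days 0, 2 and 3, beside 0.01, 0.02 and 0.02 over all genes. Values of knockout and control samples did not overlap for 16, 15 and 19 members on days 0, 2 and 3, while 17.8%, 21.7% and 35.2% of all genes had no overlap.

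**Figure D1:**
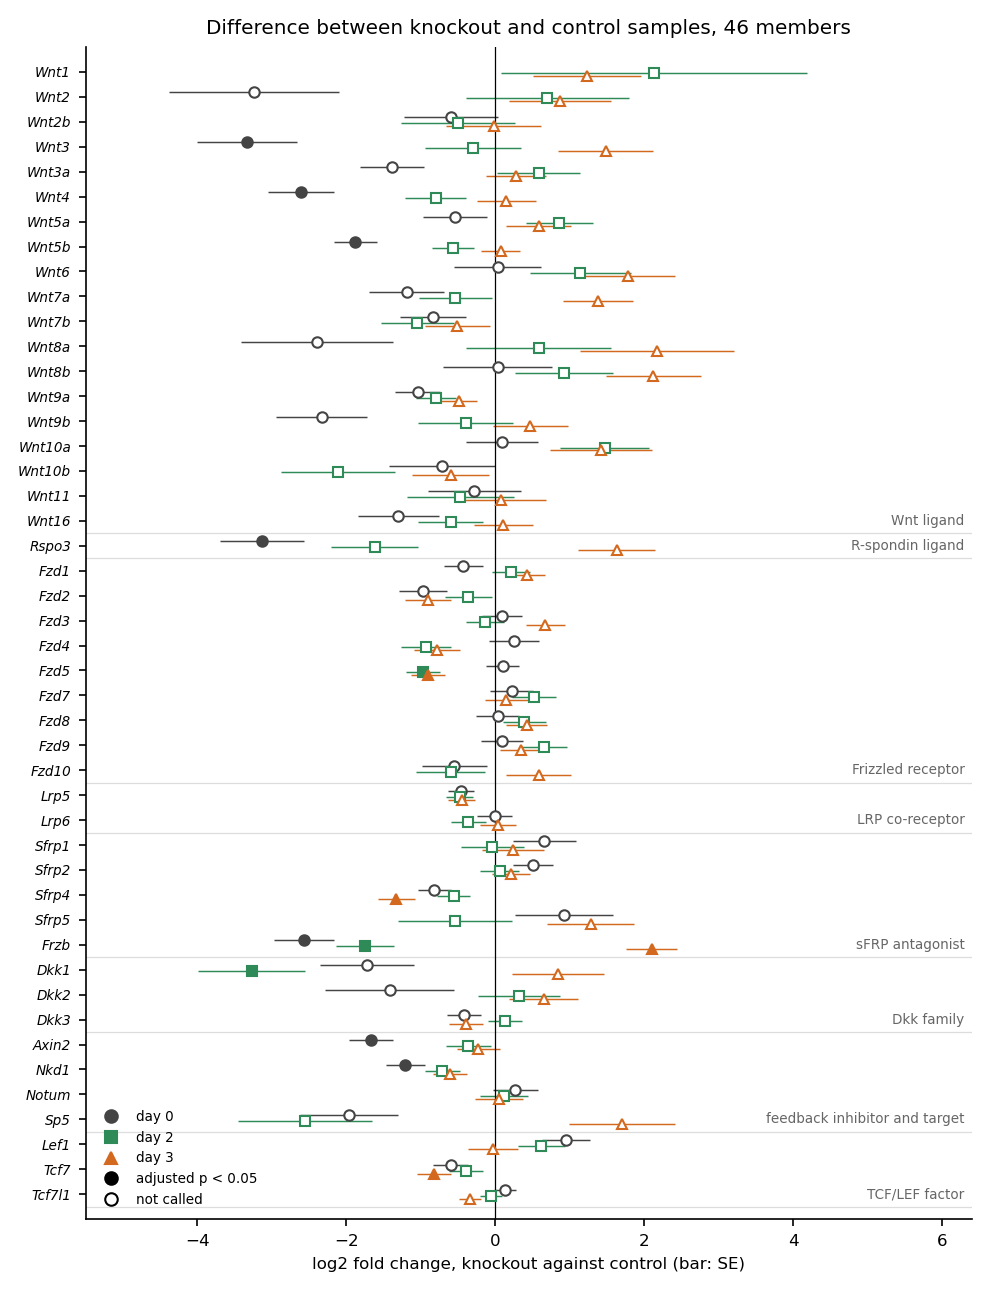
Log2 fold change (x axis, bar: SE) of knockout against control for the 46 tested members, ordered by role, with circles for day 0, squares for day 2 and triangles for day 3. Filled symbols are adjusted p below 0.05. Day 0 has 7 filled circles, all left of 0, day 3 has Frzb as its only filled triangle right of 0, and Wnt1 has no day 0 symbol because it held 0 counts in all 6 samples.

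Among the ligands called in the pluripotent state, Wnt3 had the largest log2 fold change and the highest adjusted p, and its call was kept in 10 of 16 alternatives, against 14 for Wnt4, 14 for Wnt5b and 13 for Rspo3. Wnt3 read 7.20, 10.2 and 6.66 CPM in HM1 replicate 1, HM1 replicate 2 and 1A4 at day 0, and 0.891, 0.674 and 1.06 CPM in lines 14, 19 and 319. All 3 knockout lines lay far below all 3 controls, and the log2 fold change was -3.33 ± 0.67 (SE, adjusted p = 0.025), a 10.1-fold difference. Wnt4, a ligand best known from kidney and gonad development, read 2.34, 4.16 and 2.59 CPM in the controls and 0.377, 0.511 and 0.632 CPM in the knockout lines (-2.61 ± 0.44, adjusted p = 0.0084). Wnt5b, a ligand mostly linked to non-canonical signalling, read 2.39, 2.55 and 2.55 CPM against 0.686, 0.395 and 0.938 CPM (-1.88 ± 0.29, adjusted p = 0.0052). Rspo3, the R-spondin that strengthens the Wnt signal, read 1.79, 3.56 and 1.91 CPM against 0.274, 0.395 and 0.163 CPM (-3.13 ± 0.56, adjusted p = 0.013). The groups did not overlap in any of these 4 genes. Over the 18 Wnt ligands with counts at day 0 the median log2 fold change was -1.12, with 15 values below 0 and 3 above, and 3 were called; Wnt1 held 0 counts in all 6 samples. Wnt2 and Wnt9b held at most 3 counts in every knockout sample at day 0, so that the controls were at least 2.26-fold and at least 3.88-fold higher against a floor of 3 counts per sample, and neither was called.

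**Figure D2:**
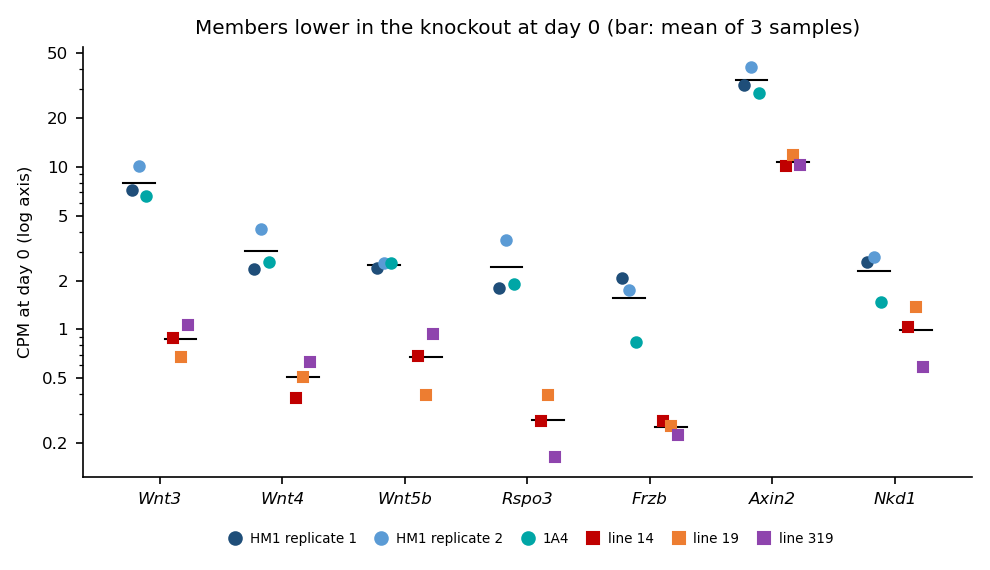
CPM on a log axis (y) of the 7 members called at day 0 (x), with circles for control samples, squares for knockout samples and a bar for the mean of 3 samples. The 3 knockout samples lie below the 3 control samples for every gene, and for Wnt3 they sit between 0.674 and 1.06 CPM against 6.66 to 10.2 CPM.

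Most of these calls were lost when an HM1 replicate or line 14 was left out. Without HM1 replicate 2 or without line 14, 0 of the 46 members was called at day 0 by the edgeR test, although 12 and 17 of them had an unadjusted p below 0.05. Without HM1 replicate 1, Wnt4 and Wnt5b alone were called, and without line 19 the adjusted p of Wnt3 was 0.07. The share of all genes called in these refits is not given here. A loss particular to the members thus cannot be told from a general loss of calls. Over the alternatives the log2 fold change stayed between -2.83 and -2.22 for Wnt4 and between -2.83 and -2.39 for Frzb. Over the 16 alternatives the log2 fold change of Wnt3 ranged from -3.96 to -2.94 and its adjusted p from 1.8e-05 to 0.288, and DESeq2 called all 7 members plus Wnt9a and Sfrp4. Within the HM1-derived lines alone, 8 members were called (1.69% of all genes): Wnt3, Wnt4, Wnt5b, Rspo3, Frzb and Axin2 again, with Wnt7b (-1.50 ± 0.32, adjusted p = 0.0494) and Wnt8a (-2.44 ± 0.28, adjusted p = 0.004) in addition, and without Nkd1 (adjusted p = 0.072). Primitive streak markers moved with these genes. The 8 listed markers summed to 57.9 to 119 CPM in day 0 controls and 15.1 to 18.5 CPM in day 0 knockouts. Of them T read 21.4 to 56.7 CPM in controls and 2.00 to 4.66 CPM in knockouts, Mixl1 4.86 to 7.18 and 0.24 to 0.449 CPM, and Mesp1 was at or near 0 in both. The 11 feeder fibroblast markers summed to 174 to 381 CPM in controls and 127 to 213 CPM in knockouts, and 9 of the 11 overlapped between the groups. The lowest control was 1A4. Within the HM1-derived samples the sums were 381 and 374 CPM in controls and 213 and 127 CPM in lines 14 and 19. There every marker but Thy1, Dcn and Lum was lower in both knockout lines than in both controls. Postn read 1.08 to 1.73 CPM in controls and 0.224 to 0.395 CPM in knockouts, Tagln 47.2 to 130 and 11.8 to 42 CPM, and Lum at most 0.12 CPM in either. The part of these markers in the result was not tested.

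After day 0 the lines parted in Wnt3. At day 2 it read 4.54, 2.79 and 2.69 CPM in the controls, 0.912 and 0.829 CPM in lines 14 and 19, and 9.60 CPM in line 319. Lines 14 and 19 thus stayed below the controls while line 319 lay above all of them. Over all 6 samples the difference was -0.30 ± 0.65 (adjusted p = 0.83). The difference turned positive without the sample of line 19 at day 2 (0.17). Leaving out a whole series, on all days, did the same for HM1 replicate 1 (0.10), line 14 (0.31) and line 19 (0.19). Without line 319 the difference was -1.99 and called (adjusted p = 0.012, in a range over alternatives from 0.012 to 0.971). At day 3 Wnt3 read 1.53, 1.14 and 1.48 CPM in the controls and 2.02, 3.09 and 8.41 CPM in lines 14, 19 and 319. All knockout lines lay above all controls, yet the difference of 1.48 ± 0.64 missed the threshold (adjusted p = 0.185). The control level went from a mean of 8.03 CPM at day 0 to 1.38 CPM at day 3, a course that none of the 3 knockout lines followed. The change of the genotype difference was 3.03 ± 0.91 from day 0 to day 2 (adjusted p = 0.494) and 1.78 ± 0.89 from day 2 to day 3 (adjusted p = 0.565), and without line 319 the second was 2.75 and called (adjusted p = 0.018, in a range over alternatives from 0.018 to 0.968).

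**Figure D3:**
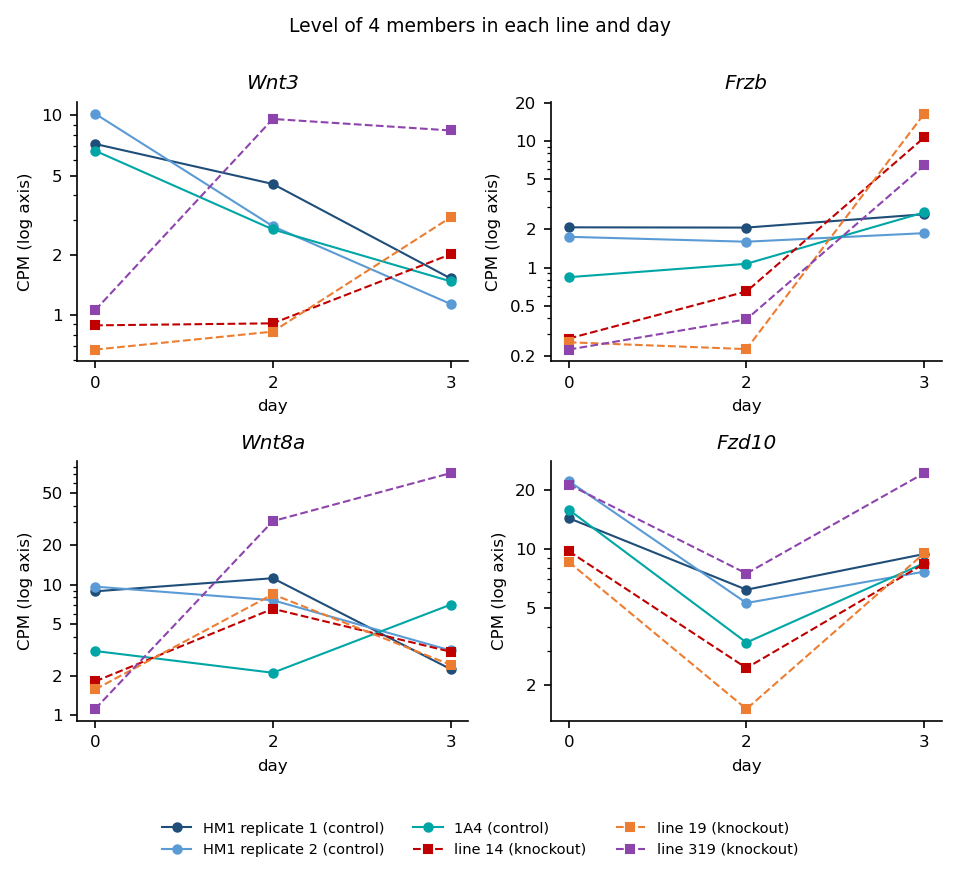
CPM on a log axis (y) by day (x) for Wnt3, Frzb, Wnt8a and Fzd10, one line per series, solid with circles for controls and dashed with squares for knockouts. Wnt3 falls in the controls while line 319 reaches 9.60 CPM at day 2, and all 3 knockout lines start below the controls in Frzb and end above them at 6.42 to 16.5 CPM.

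For Wnt3, Wnt8a and Fzd10 the genotype difference at day 2 was positive in the blastocyst-derived pair and negative in the HM1-derived lines. The test of the difference between backgrounds was chosen after the values of line 319 had been seen, and it compares 1 sample per genotype, 319 and 1A4, with a spread taken from the HM1-derived replicates, so that it describes these lines and gives no independent support. It passed the threshold for Wnt3 (log2 fold change 1.84 in the blastocyst-derived pair and -2.05 in the HM1-derived lines, difference 3.88 ± 0.59, adjusted p = 0.023), Wnt8a and Fzd10, where 0.547% of all genes were called. Wnt8a, a ligand of the early posterior embryo, read 11.2, 7.60 and 2.12 CPM in the day 2 controls, 6.54 and 8.44 CPM in lines 14 and 19, and 30.6 CPM in line 319. Its genotype difference was 3.85 in the blastocyst-derived pair and -0.34 in the HM1-derived lines (difference 4.19 ± 0.45, adjusted p = 0.0057). The control of the pair stood apart too, 1A4 being the lowest control in Wnt8a and Fzd10. At day 3 Wnt8a reached 71.3 CPM in line 319 and at most 7.03 CPM in any other sample, a difference between backgrounds of 3.30 ± 0.45 that just missed the threshold (adjusted p = 0.0505). Fzd10 read 6.18, 5.28 and 3.31 CPM in the day 2 controls, 2.45 and 1.51 CPM in lines 14 and 19 and 7.48 CPM in line 319 (difference 2.63 ± 0.48, adjusted p = 0.0497). All 3 also passed it without line 19 at day 2, with 3.84 for Wnt3 and 4.38 for Wnt8a. No member passed this edgeR test at day 0 or day 3, where it called 0.969% and 0.0219% of all genes. The primitive streak markers at day 2 summed to 18.9 to 32.7 CPM in controls, 10.5 and 9.65 CPM in lines 14 and 19, and 25.7 CPM in line 319. That sum lies inside the control range, but Eomes made up 20.9 CPM of it, against 5.74 to 7.44 CPM in controls. In line 319 T (2.12 CPM), Lhx1 (0.475 CPM), Gsc and Foxa2 lay below all controls. Mixl1 lay inside their range, and the scarce Mesp1 and Evx1 lay above it. At day 3 the primitive streak markers summed to 20.4 to 29.2 CPM in controls and to 36.3, 44.9 and 85.3 CPM in lines 14, 19 and 319, of which Lhx1 made up 68.1 CPM and T 2.90 CPM in line 319. Their part in the result was not tested. Karyotype, allele and background cannot be told apart in line 319.

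Several of the remaining ligands changed between days in the controls. From day 0 to day 2 in controls, Wnt10a went from 2.21, 1.63 and 0.718 CPM to 0.157, 0.163 and 0.182 CPM (-3.18 ± 0.56, adjusted p = 5.1e-04), and Wnt6 from 0.572, 1.42 and 1.20 CPM to 0.225, 0.116 and 0.283 CPM (-2.50 ± 0.63, adjusted p = 0.0064). The Wnt6 call was lost without HM1 replicate 2 (-1.71, adjusted p = 0.111, in a range over alternatives from 5.3e-04 to 0.111). Wnt9a rose in the same step from 1.01, 1.68 and 0.838 CPM to 4.49, 4.81 and 7.31 CPM (2.21 ± 0.28, adjusted p = 3.3e-05), and again to 13.3, 13.6 and 15.3 CPM at day 3. Wnt7b, a ligand of the developing nervous system, rose from 1.78, 1.72 and 1.58 CPM at day 2 to 9.50, 9.82 and 6.82 CPM at day 3 (2.38 ± 0.46, adjusted p = 0.0017). Wnt1, a midbrain and neural tube ligand, held 0 counts in all day 2 controls and 11 to 21 counts at day 3, at least 6.53-fold higher against a floor of 3 counts per sample. Wnt5a, the main non-canonical ligand, read 10.7, 11.7 and 10.6 CPM at day 0, 2.27, 2.81 and 2.63 CPM at day 2 and 11.3, 8.12 and 7.18 CPM at day 3 in the controls, lower and then higher again with both steps called. The edgeR test over all samples called no genotype difference in Wnt1, Wnt5a, Wnt6, Wnt7b, Wnt9a and Wnt10a on any day. Wnt9a nevertheless read lower in all 3 knockout lines than in all controls on each day, with 0.514 to 0.627, 2.51 to 4.01 and 9.77 to 10.4 CPM on days 0, 2 and 3, and DESeq2 called it at day 0 (-1.05, adjusted p = 0.04) and day 2 (-0.77, adjusted p = 0.044). The other Wnt genes, Wnt2, Wnt2b, Wnt3a, Wnt7a, Wnt8b, Wnt9b, Wnt10b, Wnt11 and Wnt16, stayed at or below 2.02 CPM in every sample.

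The Frizzled receptors exchanged places during differentiation. Fzd5, per length the second most abundant Frizzled in day 0 controls after Fzd7, read 114, 133 and 134 CPM there and fell to 54.7, 61.3 and 56.2 CPM at day 2 and 24.6, 27.9 and 27.8 CPM at day 3. Fzd4 went the other way: it read 5.10, 5.60 and 6.83 CPM in day 2 controls and 94.7, 79.1 and 66.5 CPM at day 3 (3.75 ± 0.34, adjusted p = 2.2e-06). Fzd8 rose from 7.01, 5.28 and 4.69 CPM to 20.5, 22.5 and 29.5 CPM in the same step (2.15 ± 0.29, adjusted p = 1.0e-04). Fzd2 climbed from a range of 7.46 to 17.3 CPM at day 0 to 138 to 153 CPM at day 3, with both steps called, and Fzd1 and Fzd3 also rose in both steps. Fzd7, a receptor typical of stem cells, rose to 240 to 273 CPM at day 2 and fell back to 119 to 125 CPM at day 3. Of the 9 tested Frizzled genes, Fzd5 alone was called between genotypes over all samples. Without a call, the groups also did not overlap for Fzd2 at day 3 (69.0 to 95.1 CPM in knockouts) and Fzd4 at day 2 (1.88 to 3.85 CPM), both lower. The same held for Fzd8 at day 3 (30.6 to 35.5 CPM) and Fzd9 at days 2 and 3, both higher. On days 2 and 3, 21.7% and 35.2% of all genes had no overlap.

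Fzd5 was lower in the knockout on both days of differentiation. At day 2 it read 43.1, 21.7 and 23.0 CPM in lines 14, 19 and 319, below all controls (-0.97 ± 0.23, adjusted p = 0.042), and at day 3 it read 17.0, 11.7 and 14.4 CPM, again below all controls (-0.90 ± 0.23, adjusted p = 0.035). At day 0 the groups overlapped, with 143, 160 and 109 CPM in the knockout lines. The day 2 call depended on the sample of line 19 at day 2, without which the value was -0.79, and on single series. Fzd5 was not called there without any one of the 3 control series, line 19 or line 319 (values from -1.05 to -0.79), nor with day 2 fitted alone (range of adjusted p over alternatives 0.0029 to 0.499). The day 3 call was lost without any one of the control series (-0.99, -0.89 and -0.75, with adjusted p of 0.131, 0.206 and 0.174 within a range over alternatives of 0.0049 to 0.206) and within the HM1-derived lines alone (-0.87). Within those lines Fzd10 at day 2 (-1.46 ± 0.29, adjusted p = 0.045) and Fzd3 at day 3 (0.91 ± 0.23, adjusted p = 0.044) were called instead, beside 1.32% and 6.06% of all genes. The co-receptor Lrp5 read lower in all 3 knockout lines than in all controls on each day (-0.46, -0.48 and -0.45). It read 37.7 to 54.4, 74.8 to 117 and 70.0 to 93.8 CPM in knockouts on days 0, 2 and 3. The controls read 58.1 to 72.7, 140 to 147 and 111 to 119 CPM. Lrp6 differed by -0.01, -0.36 and 0.04, and neither co-receptor was called on any day.

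**Figure D4:**
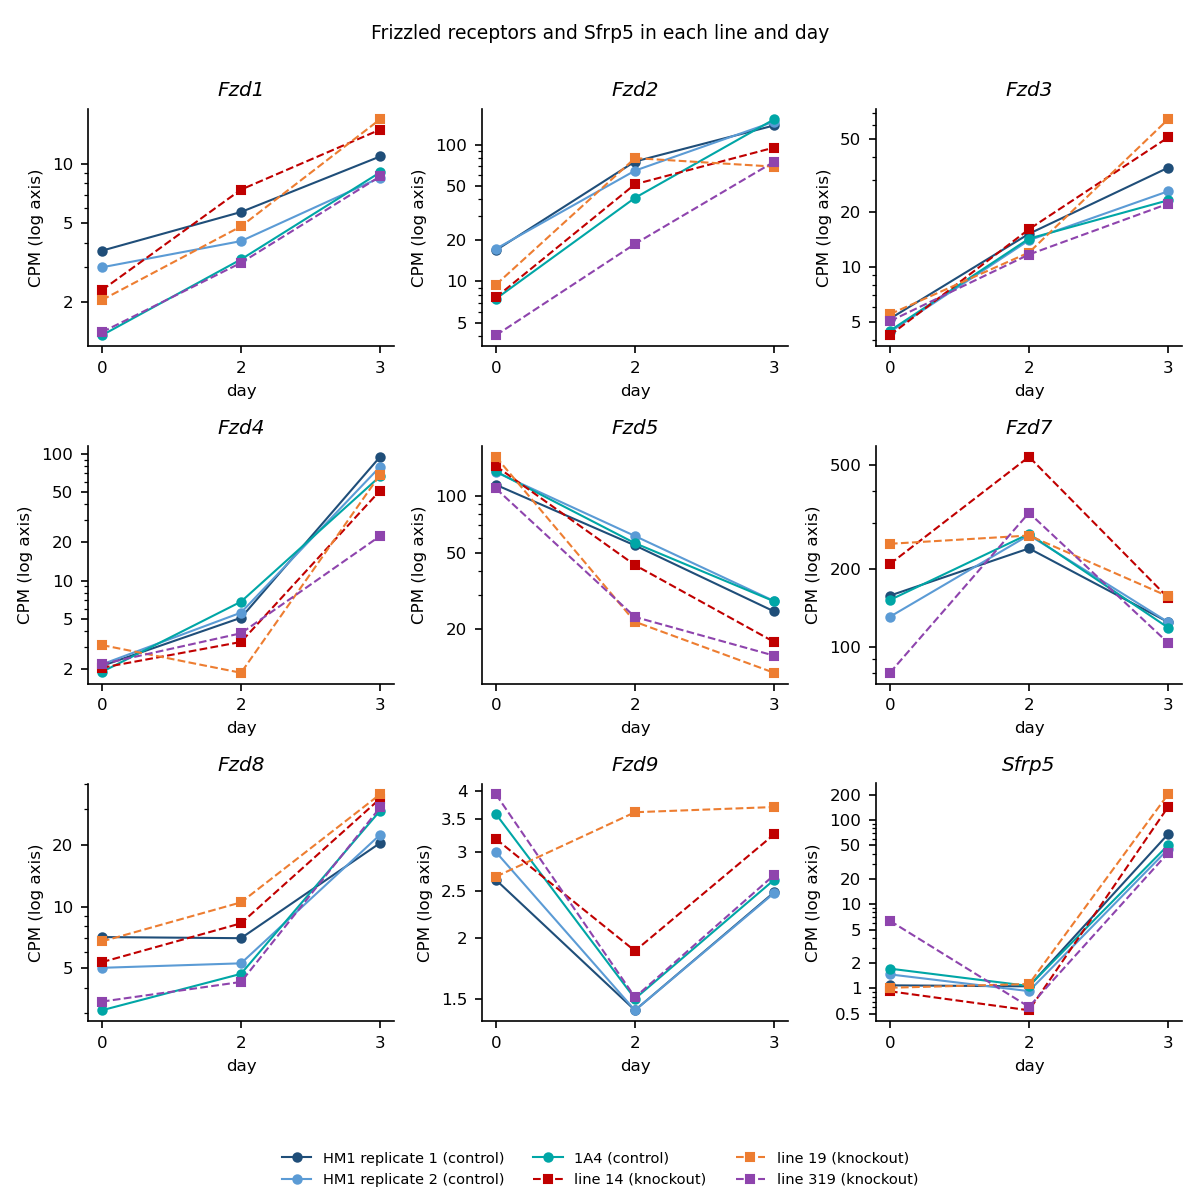
CPM on a log axis (y) by day (x) for 8 Frizzled receptors and Sfrp5 in each series, solid with circles for controls and dashed with squares for knockouts. Fzd5 falls on each day and Fzd4 climbs to between 22.5 and 94.7 CPM at day 3, and the 3 knockout lines lie below the 3 controls in Fzd5 at days 2 and 3.

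Frzb, a secreted antagonist of the sFRP family that binds Wnt ligands, was the member with a called difference on every day, and its direction turned over. At day 0 it read 2.08, 1.75 and 0.838 CPM in the controls and 0.274, 0.256 and 0.224 CPM in lines 14, 19 and 319 (-2.57 ± 0.40, adjusted p = 0.0053). At day 2 the values were 2.07, 1.60 and 1.07 CPM against 0.646, 0.226 and 0.389 CPM (-1.75 ± 0.39, adjusted p = 0.035, and 0.055 with the series as a block). At day 3, after retinoic acid, the controls read 2.64, 1.87 and 2.73 CPM and the knockout lines 10.7, 16.5 and 6.42 CPM (2.10 ± 0.34, adjusted p = 0.0047). Knockout lines thus lay below every control on days 0 and 2 and above every control on day 3. In controls Frzb changed by 0.70 ± 0.34 from day 2 to day 3 (adjusted p = 0.163), while in knockouts it rose by 4.55 ± 0.40 (adjusted p = 1.2e-06). The change of the genotype difference from day 2 to day 3 was 3.85 ± 0.51 (adjusted p = 0.0069), in a test that called 7 of 18273 genes, or 0.0383%. With the series as a block its adjusted p was 0.052, and it was 0.288, 0.172 and 0.106 without HM1 replicate 1, HM1 replicate 2 and line 14, with values between 3.32 and 4.39 over all alternatives and a lowest adjusted p of 3.4e-09. The day 0 call was lost without HM1 replicate 1, HM1 replicate 2 or line 14 (adjusted p = 0.066, 0.071 and 0.078), and the day 3 call without HM1 replicate 1 or 2 (0.084 and 0.096). The day 2 call was kept in 6 of 16 alternatives, with values from -2.10 to -1.49 and adjusted p from 0.002 to 0.409. Leaving out any series but line 319, or line 19 at day 2 alone, ended it. At day 3 the summed neural progenitor markers were 312 to 376 CPM in controls and 641, 972 and 287 CPM in lines 14, 19 and 319, and the 8 primitive endoderm markers summed to 278 to 320 CPM and to 424, 543 and 242 CPM. Both lists share the order of the knockout lines in Frzb, and their part in the result was not tested.

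Frzb was not alone in this turn. In 5 members, Frzb, Rspo3, Wnt3, Sp5 and the scarce Wnt9b, every knockout line lay below every control at day 0 and above every control at day 3, although Sp5 of line 14 and 1A4 both round to 1.04 CPM at day 3. Of all genes, 17.8% at day 0 and 35.2% at day 3 had no overlap in either direction. How many of them made this turn was not counted, so whether it is frequent among the members is not known. Rspo3 read 1.73, 1.44 and 0.667 CPM in day 2 controls and 0.209, 0.151 and 0.778 CPM in lines 14, 19 and 319, and at day 3 it read 0.754, 0.668 and 0.677 CPM against 2.08, 3.64 and 1.14 CPM. Line 319 was thus the knockout line that overlapped the controls at day 2. The Rspo3 differences of -1.62 ± 0.58 at day 2 and 1.63 ± 0.52 at day 3 were not called over all samples (adjusted p = 0.143 and 0.078), but both were called within the HM1-derived lines (-3.01, adjusted p = 0.026, and 1.97, adjusted p = 0.023). From day 2 to day 3 the genotype difference changed by 3.25 ± 0.78 in Rspo3 and by 4.26 ± 1.13 in Sp5, and neither change was called by edgeR (adjusted p = 0.25 and 0.299), while DESeq2 called both (adjusted p = 0.01 and 0.014). The Sp5 change is larger than that of Frzb, with a wider error. At day 3 Sp5 read 0.35, 0.768 and 1.04 CPM in controls and 1.04, 1.17 and 5.25 CPM in lines 14, 19 and 319 (1.70 ± 0.71, adjusted p = 0.17).

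Of the other antagonists, Sfrp4 was lower in the knockout at day 3, with 0.969, 1.14 and 1.72 CPM in controls and 0.314, 0.378 and 0.906 CPM in lines 14, 19 and 319 (-1.33 ± 0.25, adjusted p = 0.01). The groups did not overlap, and the call was lost without HM1 replicate 1, HM1 replicate 2 or line 14 (values -1.37, -1.25 and -1.17, with adjusted p of 0.098, 0.102 and 0.057 within a range over alternatives of 4.8e-04 to 0.137). In controls Sfrp4 fell from 5.44, 7.07 and 8.22 CPM at day 2 (-2.48 ± 0.24, adjusted p = 3.7e-06). Sfrp5 showed the largest step between days 2 and 3 among members that reach 1 CPM in controls, from 1.06, 0.93 and 1.07 CPM at day 2 to 68.1, 45.0 and 50.3 CPM at day 3 (5.75 ± 0.71, adjusted p = 4.5e-05). In the knockout at day 3 it read 143, 202 and 40.7 CPM in lines 14, 19 and 319, so that the HM1-derived knockouts lay above all controls and line 319 below them. The difference over all samples was 1.28 ± 0.58 (adjusted p = 0.205), and within the HM1-derived lines alone it was 1.60 ± 0.28 and called (adjusted p = 0.014). Sfrp1 and Sfrp2 were not called between genotypes on any day.

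Dkk1, the antagonist that binds the LRP co-receptors, was lower in the knockout at day 2. It read 1.64, 1.37 and 0.929 CPM in controls and 0.057, 0.226 and 0.216 CPM in lines 14, 19 and 319 (-3.27 ± 0.72, adjusted p = 0.035), with no overlap. The call held without line 319 (-3.85, adjusted p = 0.014) and was lost without HM1 replicate 1 (-3.00, adjusted p = 0.253), HM1 replicate 2 (-3.19, adjusted p = 0.204) or line 14 (-2.56, adjusted p = 0.056), in a range over alternatives from 9.4e-04 to 0.337. Lines 14 and 19 held at most 3 counts of Dkk1 each at day 2, so the size of the value without line 319 is not fixed by these counts. From day 2 to day 3 Dkk1 fell in controls (-1.83 ± 0.60, adjusted p = 0.04) and rose in knockouts (2.28 ± 0.74, adjusted p = 0.027). The change of the genotype difference in that step was 4.11 ± 0.95, but did not pass the edgeR test (adjusted p = 0.234), while DESeq2 called it (4.09, adjusted p = 0.011). Dkk3, an atypical member of the family, lay between 4.79 and 12.1 CPM in all samples and Dkk2 below 0.5 CPM, and neither was called between genotypes.

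The feedback genes, which report canonical signalling in many tissues, were lower in the knockout at day 0 in 2 of 4 cases. Axin2, the scaffold of the beta-catenin destruction complex, read 32.1, 41.5 and 28.7 CPM in controls and 10.1, 11.8 and 10.3 CPM in lines 14, 19 and 319 (-1.67 ± 0.30, adjusted p = 0.014). By day 2 its groups overlapped, with 29.5, 27.1 and 19.6 CPM against 20.3, 8.97 and 29.9 CPM (-0.36, and 0.01 without line 19 at day 2), and at day 3 the controls read 32.4, 39.3 and 33.5 CPM and the knockouts 30.6, 27.7 and 31.6 CPM, differences that were not called. Nkd1, which inhibits Dishevelled, read 2.60, 2.79 and 1.48 CPM in day 0 controls and 1.03, 1.37 and 0.591 CPM in the knockout lines (-1.21 ± 0.26, adjusted p = 0.037, and 0.098 with the series as a block), although line 319 carries an extra copy of its chromosome. Its call was also lost without HM1 replicate 1 or 2, line 14 or line 319, with adjusted p from 0.0016 to 0.376 over the alternatives. The Axin2 call was lost without HM1 replicate 1 (-1.70, adjusted p = 0.098), HM1 replicate 2 (-1.48, adjusted p = 0.213) or line 14 (-1.63, adjusted p = 0.141), the highest of its alternatives being 0.213 and the lowest 2.0e-05. Sp5, a transcription factor with a TCF/LEF match in its promoter, read 8.79, 9.44 and 5.07 CPM against 1.44, 3.25 and 1.33 CPM at day 0, without overlap but not called (-1.96 ± 0.66, adjusted p = 0.224). At day 2 it was 1.53, 0.698 and 0.505 CPM against 0.038, 0.0754 and 0.432 CPM (-2.56 ± 0.90, adjusted p = 0.137), where lines 14 and 19 held at most 3 counts each. Within the HM1-derived lines Sp5 was called at day 2 (fitted value -4.50 ± 0.82, adjusted p = 0.035), lower in the knockouts by an amount that these counts do not fix. Notum, the enzyme that removes the lipid from Wnt proteins, did not share this pattern: it read 38.7 to 46.2 CPM in controls and 43.2 to 67.7 CPM in knockouts at day 0.

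Over time the feedback genes went in different directions. From day 0 to day 2 in controls Notum fell to 3.06, 3.70 and 2.12 CPM (-3.79 ± 0.34, adjusted p = 1.9e-06) and Sp5 fell by 3.10 ± 0.70 on the log2 scale (adjusted p = 0.003). The Sp5 step was not called without HM1 replicate 2 (-2.74, adjusted p = 0.063, in a range over alternatives from 3.5e-05 to 0.063). Nkd1 rose in the same step to 13.3, 11.3 and 8.73 CPM (2.29 ± 0.25, adjusted p = 9.4e-06), and Axin2 changed by -0.43 ± 0.29, which was not called. The knockouts showed the same steps for Notum (-3.94 ± 0.34), Sp5 (-3.70 ± 0.89) and Nkd1 (2.79 ± 0.26), all called, and in addition a rise of Axin2 (0.88 ± 0.30, adjusted p = 0.033). The change of the Axin2 genotype difference between days 0 and 2 was 1.30 ± 0.42 (adjusted p = 0.506), and 1.66 with an adjusted p of 0.047 without line 19 at day 2.

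The TCF/LEF factors, which carry the signal on DNA, were expressed in every sample. Tcf7 read 114, 119 and 98.3 CPM in day 3 controls and 54.5, 56.2 and 73.6 CPM in lines 14, 19 and 319, without overlap (-0.82 ± 0.23, adjusted p = 0.048). Without line 319 the value was -1.13 (adjusted p = 0.002), and the call was lost without any other single series, with values from -0.91 to -0.70 and adjusted p up to 0.247. Lef1 peaked at day 2, with 68.7, 89.5 and 46.2 CPM in controls, and fell to 6.51, 7.28 and 7.86 CPM at day 3 (-3.20 ± 0.35, adjusted p = 1.5e-05). Its knockout values lay at 35.6, 59.4 and 19.5 CPM at day 0 against 23.1, 16.7 and 17.8 CPM in controls, a difference of 0.95 ± 0.32 that was not called (adjusted p = 0.233). Tcf7l1, the repressor among the factors, fell in the last step in controls (-0.71 ± 0.15, adjusted p = 0.0035) and in knockouts (-0.99 ± 0.15, adjusted p = 2.2e-04), and differed between genotypes by 0.13, -0.06 and -0.34 on days 0, 2 and 3, without a call.

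Counted over all members, more steps between days were called in knockouts than in controls, above all from day 2 to day 3. The same held over all genes, so this excess is not particular to the members. Most members called in both genotypes went the same way. From day 0 to day 2, 22 members were called in controls (11 higher, 11 lower, beside 35.2% of all genes, 19.7% higher and 15.5% lower) and 23 in knockouts (17 higher, 6 lower, beside 35.9%, 20.8% and 15.1%). Of these, 16 were called in both, all in the same direction. From day 2 to day 3, 20 members were called in controls (14 higher, 6 lower, beside 21.4% of all genes, 12.5% higher and 8.92% lower) and 29 in knockouts (23 higher, 6 lower, beside 33.6%, 17.6% and 16%). Of these, 18 were called in both and 17 went the same way, Dkk1 being the exception. How many of all genes were called in both genotypes was not counted for either step. The median member change in that last step was 0.62 in controls and 1.18 in knockouts. The difference of the steps themselves was called for no member from day 0 to day 2, where 10 had an unadjusted p below 0.05, DESeq2 also called none and 0.0219% of all genes were called, and for Frzb alone from day 2 to day 3.

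The other genes of the pathway, 94 genes on a list of receptors, antagonists, transducers, cofactors and targets, of which 92 were tested, had 5 genes lower in the knockout and none higher at day 0 (5.43%, beside 0.854% of all genes). T, the primitive streak target gene, had a log2 fold change of -3.72 ± 0.55 (adjusted p = 0.0041), Mixl1, a mesendoderm factor, -4.21 ± 0.40 (adjusted p = 7.5e-05), and Igfbp4, a secreted modulator, -1.27 ± 0.20 (adjusted p = 0.0052). The remaining pair were named after their values were seen: Cer1, an antagonist, was at least 8.22-fold and Lgr5, an R-spondin receptor, at least 9.81-fold higher in controls, against a floor of 3 counts per sample. At day 2 T (-3.08 ± 0.58) and Cer1 (-5.46 ± 0.51) were lower and Msx1 (1.68 ± 0.40, adjusted p = 0.045) was higher, 3.26% of the 92 genes beside 1.6% of all genes, and Msx1 was not called without line 19 at day 2 (1.71, adjusted p = 0.056). At day 3, 9 were higher and 2 lower (12%, beside 5.19% of all genes). Those with the largest changes above 1 CPM were Cdx2 (3.26 ± 0.89), Msx1 (2.83 ± 0.40), Myc (2.10 ± 0.28), Tnfrsf19 (1.65 ± 0.45), Klf2 (-1.47 ± 0.39) and Lgr5 (1.44 ± 0.33). Cdx2 read 19.7 CPM in line 319 and 0.744 and 0.515 CPM in lines 14 and 19, so its value rests on line 319. Ctnnb1, which encodes beta-catenin, differed by 0.15, -0.07 and 0.12 on days 0, 2 and 3 and was not called. None of the 24 genes of intracellular transduction was called at day 0 or day 2, where 1 and 5 of them had an unadjusted p below 0.05, and Dvl2 alone was called at day 3 (-0.70 ± 0.11).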

How the data were processed

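The authors sequenced polyadenylated RNA with a stranded kit, per the labels' protocols, and deposited raw counts per Ensembl transcript, 1 column for each of 72 libraries. The submitters' processing notes name bcl2fastq 2.17.1.14, STAR 2.4.0k, SAMtools, HTSeq and mm10; the strand setting of the counting is not given in the sources used here, so the 10 members whose exons overlap a gene on the opposite strand (Axin2, Fzd5, Lef1, Notum, Rspo3, Tcf7l1, Wnt7b, Wnt11, Sfrp2 and Fzd6) are uncertain in level. Transcripts were named with GENCODE M21 (GRCm38); 108214 of 110379 identifiers matched. Each gene was represented by its transcript with the highest total. The 4 technical libraries of a sample, which differed by little more than counting error (chi-square per degree of freedom 1.01 to 1.03), were summed to 18 samples. CPM used TMM-scaled totals. Depth was 16.5 to 54.4 M gene counts; a fold against a group at or below 3 counts in each sample is a lower bound, and such floors cover counting error only.

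All 18 samples entered 1 edgeR 4.0.16 quasi-likelihood fit (R 4.3.3, limma 3.58.1; filterByExpr, TMM, robust) with the 6 groups and a background term, 11 residual degrees of freedom and a common biological coefficient of variation of 0.246. Calls are Benjamini-Hochberg adjusted p below 0.05 over 18273 genes. Nothing in the labels says that HM1 replicates 1 and 2 came from separate cultures, so p-values measure the spread between these samples. On simulated day 2 data (17829 genes) the fit recovered 60 of 100 genes changed 2-fold and 86 of 100 changed 4-fold, with 9 false calls. The simulated samples had no effects of day, background or line, and the changed genes averaged at least 1 CPM. Recovery and false calls with the real differences between lines are not known from it.

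Samples of a series (a line, or an HM1 replicate) on different days come from the same line, so the series pairs the days. Deviations from group means correlated above 0.1 in 15 of 18 pairs of days (lowest -0.13, highest 0.48). Blocked fits used edgeR with series terms for changes between days and limma-voom with an estimated correlation of 0.01 within a series for genotype differences.

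Members, gene lists and tests were chosen with earlier results of these data known. The text names every member called between genotypes whose higher group averaged 1 CPM or more, the 6 called members with the largest change per step in controls, and up to 6 other pathway genes per day. Alternatives were DESeq2 1.42.0, RLE scaling, no filter, no background term, HM1-derived lines alone, each day alone, the longest transcript, summed transcripts, leaving out line 19 at day 2 or each series in turn, and the block. Promoters came from RefSeq tables. Tables were made with Python 3.11.15 and pandas 2.3.3.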

Additional observations from a re-analysis of the deposited data

Results flagged for a closer look

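The genotype difference of Frzb changed between days 2 and 3 by 3.85 on the log2 scale, by a test of the change itself, from -1.75 at day 2 to 2.10 at day 3. The genotype difference at day 2 in the blastocyst-derived pair minus that in the HM1-derived lines was 3.88 for Wnt3, 4.19 for Wnt8a and 2.63 for Fzd10, past the threshold of a test that was chosen after these values were seen and gives no independent support. The blastocyst-derived side of these differences is 1 sample per genotype, lines 1A4 and 319, assumed to vary like the HM1-derived replicates, and line 319 alone carries the gains of chromosomes 8 and 12.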

How the results depend on the processing

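Of 496 values of 32 named results under alternatives, 413 kept direction and side of the threshold, 74 lost and 4 gained the call, and 5 changed direction, all of them Wnt3 at day 2 (0.18 without the background term, 0.17 without line 19 at day 2, and 0.10, 0.31 and 0.19 without control replicate 1, knockout replicate 1 and knockout replicate 2, the range over single replicates being -1.99 to 0.31). Leaving out 1 replicate gave between 0 and 9 members called at day 0, 0 and 9 at day 2, 0 and 11 at day 3, 14 and 27 for day 2 against day 0 in controls, 10 and 27 for day 3 against day 2 in controls, 14 and 27 and 19 and 30 for those steps in knockouts, and 0 and 4 for the change of the genotype difference from day 2 to day 3. The counts of 0 came without HM1 replicate 1 (days 2 and 3), HM1 replicate 2 (all 3 days) or line 14 (day 0), where edgeR left 6 to 17 members at an unadjusted p below 0.05. At day 2 the 3 calls became 6 with DESeq2, 1 without the background term, 5 in HM1-derived lines alone (beside 1.32% of all genes), and 0 when fitted on that day's samples, which called no gene and left 10 members at an unadjusted p below 0.05. At day 3 the 4 calls became 2 without the background term, 10 with the day alone and 8 without line 19 at day 2. The change from day 0 to day 2 gained 1 call without line 19 at day 2. For the change from day 2 to day 3, DESeq2 gave 4 calls, HM1-derived lines alone 2 and the replicate block 0, with 8 members at an unadjusted p below 0.05. The block ended the calls of Nkd1 at day 0 (-1.23), Frzb at day 2 (-1.78) and the Frzb change (3.85), and changed no other named call. For most of these settings the share of all genes called is not given here. Changes in the counts are therefore not read as particular to the members. The cause of these changes was not tested. Leaving out line 19 at day 2 was also tried, after seeing the data, for further values of day 2: Axin2 between genotypes changed direction, from -0.36 to 0.01, and Msx1 lost its call. No simulation was run at the levels of the ligands, so the smallest difference detectable there is not known.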
